A study of Homo sapiens with 4 samples.

Results

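Promoter chromatin was examined at 10 genes of the human pluripotency program, *POU5F1*, *NANOG*, *SOX2*, *PRDM14*, *LIN28A*, *LIN28B*, *UTF1*, *DPPA2*, *DPPA4* and *TDGF1*, which were selected by gene symbol from the 20242 promoters of the series. Each symbol was present once in every file, so all 10 genes were measured. The cells were JMJD3c-hESCs, made from SEES-3, an established line of human embryonic stem cells (hESCs), by stable integration of a Tet-responsive transgene and puromycin selection. Whether the libraries came from a single clone is not given in the sources used here. The transgene encodes JMJD3c, an HA-tagged and nuclear-targeted catalytic region of JMJD3, which removes methyl groups from lysine 27 of histone H3. All 4 groups carried this transgene and the reverse Tet-transactivator, and were grown without feeder cells in StemFit AK-03 medium. Trimethylated lysine 27 (H3K27me3) and trimethylated lysine 4 (H3K4me3) of histone H3 were each profiled by ChIP-seq in untreated cells (−Dox) and in cells given doxycycline (Dox) at 1 µg/ml to induce JMJD3c (+Dox), collected on day 3. No control line without JMJD3c and no sample given Dox without the transgene was analysed here, so induction of JMJD3c and exposure to Dox cannot be told apart.

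Pluripotent cells are held in an undifferentiated state by a small network of transcription factors, in which OCT4 (encoded by *POU5F1*), SOX2 and NANOG bind their own and one another's genes. PRDM14 sustains this network in human cells, the LIN28 proteins bind RNA and block maturation of let-7 microRNAs, and UTF1, DPPA2 and DPPA4 are chromatin-associated proteins found in early embryonic and germ cells. TDGF1 (CRIPTO) is the co-receptor of NODAL at the cell surface. H3K4me3 marks the starts of active or poised genes, whereas H3K27me3 is deposited by Polycomb complexes and accompanies repression, and promoters with both marks are called bivalent.

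Each value is coverage, summed over a window reaching 3 kb to either side of a transcription start and scaled by the authors to the reads of the library. Windows had the same length for all genes, so levels can be compared between genes. There was 1 library for each mark and condition and therefore no replicate, no test and no p-value, and each comparison is one of 2 libraries. Intervals are 95% intervals of counting error (exact Poisson for a level, Clopper-Pearson for a ratio), obtained from approximate read numbers. They do not contain the variation between cultures, and reads were not told apart by molecular identifiers, so duplicates of a molecule may be counted more than once. Judged by the step between values, a read was worth about 0.983 to 1.29 signal units and the libraries held about 2629351 to 3509244 reads. Both +Dox libraries gave the same number, 2682085, and whether this was the true depth of both is not known. If it was not, the ratios of a mark would be off by a common factor. The median promoter had about 5 reads for H3K27me3 in both conditions and 42 (−Dox) or 30 (+Dox) for H3K4me3. The class threshold was that of the study's methods. A value above 20 was taken as marked, which was the case at 11% of all promoters for H3K27me3 and 63.7% for H3K4me3 in −Dox. No input library was used, and the values include background.

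Which start was measured differed among the genes. Positions are GRCh37 coordinates, the assembly behind hg19, found by matching the deposited transcripts to GENCODE 44. For 7 genes (*SOX2*, *PRDM14*, *LIN28A*, *LIN28B*, *UTF1*, *DPPA2* and *DPPA4*) the deposited start coincided with that of the canonical transcript. The windows of 6 of them, each centred on the first base of the transcript, were chr3:181426713-181432713 for *SOX2*, chr1:26734308-26740308 for *LIN28A*, chr6:105401982-105407982 for *LIN28B* and chr10:135040721-135046721 for *UTF1*, all on the plus strand. On the minus strand they were chr3:109032364-109038364 for *DPPA2* and chr3:109053393-109059393 for *DPPA4*. The *POU5F1* window (chr6:31145508-31151508, minus strand) was centred 10049 bp from the canonical start at 31138459, which lay 7049 bp beyond the edge of the window. No deposited window with a matched position covered that canonical start, so the values given for *POU5F1* do not describe its main promoter. The *NANOG* window (chr12:7937390-7943390, plus strand) was centred 1608 bp from the canonical start, which it still contained. The *TDGF1* window (chr3:46619640-46625640, plus strand) missed the canonical start by 362 bp, and its transcript is assigned in GENCODE 44 to another gene, ENSG00000283877. That canonical start fell inside the deposited window of the neighbouring gene *LRRC2*. Among all matched promoters, 86.4% of deposited starts were within 1 kb of the canonical start. *POU5F1*, *NANOG* and *TDGF1* also have processed copies elsewhere in the genome, and how reads shared with such copies were assigned is not given in the sources used here.

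To show what lies under these windows, promoter sequences of RefSeq (GRCh38.p14) were matched by symbol and found for 6 of the 10 genes, *UTF1*, *SOX2*, *NANOG*, *LIN28B*, *DPPA2* and *DPPA4*. Each runs from 250 bases before to 50 bases after a transcription start. All but that of *SOX2* are printed, 5′ to 3′ on the strand of the gene, with every CpG dinucleotide in capitals. CpG is shown because CpG-rich promoters are widely trimethylated at lysine 4, and the genes below differ both in CpG number and in H3K4me3. *UTF1* is at chr10:133229967-133230266 on the plus strand, *DPPA2* at chr3:109316468-109316767 and *DPPA4* at chr3:109337497-109337796 on the minus strand. *LIN28B* has a start upstream at chr6:104940715-104941014 and the deposited start at chr6:104956857-104957156, both on the plus strand, and the canonical *NANOG* promoter is at chr12:7789152-7789451 on the plus strand.
UTF1: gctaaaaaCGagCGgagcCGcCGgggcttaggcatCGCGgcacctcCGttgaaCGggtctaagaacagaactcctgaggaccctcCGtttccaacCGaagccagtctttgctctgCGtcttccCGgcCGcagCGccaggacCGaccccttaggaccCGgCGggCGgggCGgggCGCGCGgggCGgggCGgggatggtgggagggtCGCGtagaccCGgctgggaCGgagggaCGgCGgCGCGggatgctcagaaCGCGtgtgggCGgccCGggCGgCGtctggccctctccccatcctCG
DPPA2: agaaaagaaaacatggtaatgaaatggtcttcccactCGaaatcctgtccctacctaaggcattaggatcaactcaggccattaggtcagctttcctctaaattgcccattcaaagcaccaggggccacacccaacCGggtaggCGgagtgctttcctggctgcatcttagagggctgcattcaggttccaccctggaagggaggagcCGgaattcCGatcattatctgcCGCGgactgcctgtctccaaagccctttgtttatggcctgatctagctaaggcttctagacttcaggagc
DPPA4: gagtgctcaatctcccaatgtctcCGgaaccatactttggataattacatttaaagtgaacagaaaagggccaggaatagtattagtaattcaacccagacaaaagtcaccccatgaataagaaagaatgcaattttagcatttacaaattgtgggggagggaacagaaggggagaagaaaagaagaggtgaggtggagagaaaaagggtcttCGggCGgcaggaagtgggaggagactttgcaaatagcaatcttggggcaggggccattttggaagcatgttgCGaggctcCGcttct
LIN28B upstream start: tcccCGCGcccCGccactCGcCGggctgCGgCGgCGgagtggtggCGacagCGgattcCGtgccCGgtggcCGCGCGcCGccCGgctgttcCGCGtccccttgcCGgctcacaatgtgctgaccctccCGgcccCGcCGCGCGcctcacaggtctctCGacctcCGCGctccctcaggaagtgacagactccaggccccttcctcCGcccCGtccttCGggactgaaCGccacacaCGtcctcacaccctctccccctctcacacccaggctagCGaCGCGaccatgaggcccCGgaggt
LIN28B deposited start: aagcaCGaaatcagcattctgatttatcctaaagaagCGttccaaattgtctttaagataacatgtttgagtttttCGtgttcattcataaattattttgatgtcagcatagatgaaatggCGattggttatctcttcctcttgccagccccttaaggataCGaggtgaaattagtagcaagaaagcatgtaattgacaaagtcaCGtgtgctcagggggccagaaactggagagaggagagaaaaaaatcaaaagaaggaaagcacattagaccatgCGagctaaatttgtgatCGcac
NANOG canonical start: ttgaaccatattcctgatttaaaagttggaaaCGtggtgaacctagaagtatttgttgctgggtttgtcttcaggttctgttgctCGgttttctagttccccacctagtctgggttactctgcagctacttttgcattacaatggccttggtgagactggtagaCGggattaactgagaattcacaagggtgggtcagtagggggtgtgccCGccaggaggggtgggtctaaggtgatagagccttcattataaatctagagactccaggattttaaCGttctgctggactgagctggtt

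The *UTF1* sequence held 39 CpGs and that of *SOX2* 20, against a median of 14 over the 35116 RefSeq promoters of this length. The other promoters at the measured starts were poor in CpG, with 8 in *LIN28B*, 7 in *DPPA2* and 5 in *DPPA4*, and the canonical *NANOG* promoter also held 5. The 2 *LIN28B* starts were 16142 bp apart, and the upstream one, with 37 CpGs, was covered by no deposited window with a matched position. Motifs were searched on both strands. The octamer ATGCAAAT was in 0 of these 7 sequences (1.77% of all RefSeq promoters), and CATTGTT, a core of SOX factor sites, was in 0 of 7 (3.33%). Shorter forms, chosen after the first result was known and contained in the longer ones, were found. ATGCAAA (4.46% of all) was in *NANOG* on the minus strand at −120 and in *SOX2* at −100 from the start, and CATTGT (10.8%) was in *NANOG* on the minus strand at −112 and in the upstream *LIN28B* sequence. The GC box GGGCGG (45.0% of all) occurred in 4 of the 7 sequences, with 6 matches in *UTF1*, the CCAAT box CCAAT (34.6%) in 3, and TATAAA (11.5%) in *NANOG* alone. A match is a description of the letters and not of binding.

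The first question was which marks the pluripotency genes carried before induction. H3K4me3 was above 20 at 8 of the 10 genes in −Dox and at the same 8 in +Dox cells, and none exceeded 20 for H3K27me3 in either condition. The 8 genes were therefore H3K4me3-only, *POU5F1* and *DPPA2* were unmarked, and none was bivalent. Of all 20242 promoters, 10980 were H3K4me3-only, 7036 unmarked and 1907 bivalent in −Dox. The median H3K4me3 value of the 10 genes was 90.5 in −Dox and 67.9 in +Dox, beside 41.3 and 38.8 over all promoters, and their median H3K27me3 value was 5.51 in −Dox and 8.76 in +Dox, beside 6.09 and 5.97.

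**Figure D1:**
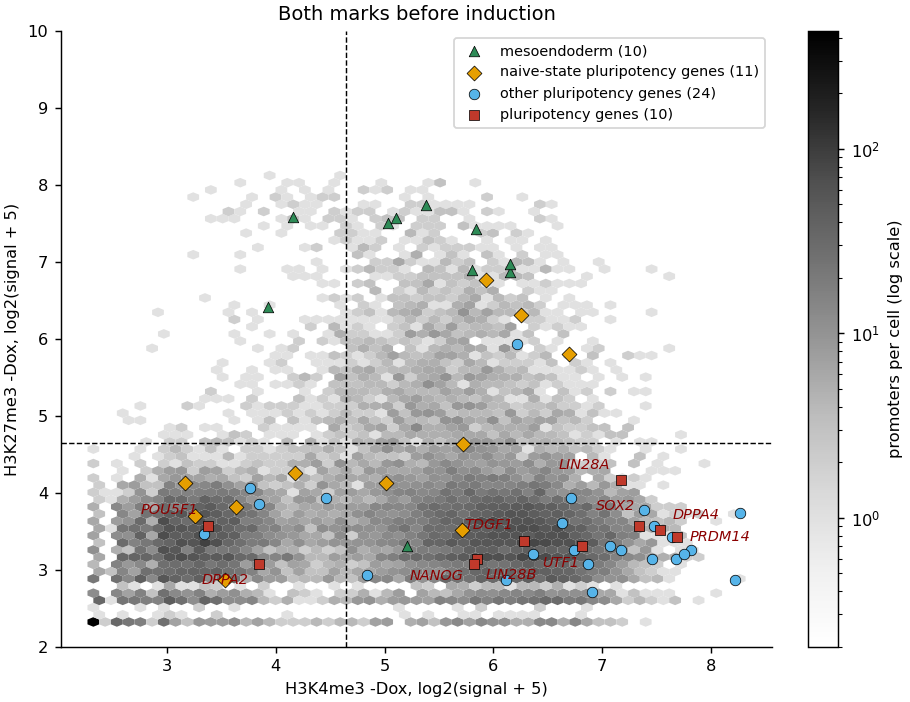
H3K4me3 (x axis) against H3K27me3 (y axis) in −Dox cells, both as log2(signal + 5), for all 20242 promoters (grey cells, darker with more promoters) and 4 gene lists (coloured symbols, number of genes in brackets), with dashed lines at a signal of 20. The 10 pluripotency genes all lie below the H3K27me3 line and 8 of them lie to the right of the H3K4me3 line, whereas 9 of 10 mesoendoderm genes lie above the H3K27me3 line.

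The labelled cell type was checked against genes of other lineages. H3K27me3 exceeded 20 in −Dox at 9 of 10 mesoendoderm and 9 of 10 neuroectoderm genes, beside 11% of all promoters. It did so at 1 of 7 fibroblast genes, a share near that of all promoters, and at 0 of 8 housekeeping genes. These counts above 20 were the same in +Dox cells, although levels differed at some genes. The counting interval of the H3K27me3 ratio lay below 1 at 2 mesoendoderm and 4 neuroectoderm genes, beside 6.81% of all promoters. It lay above 1 at 2 mesoendoderm genes and at no neuroectoderm gene, beside 1.46%. These intervals are for the values as deposited. The median H3K4me3 value was 34.3 for mesoendoderm and 37.5 for neuroectoderm genes in −Dox, below that of the pluripotency genes. For the fibroblast genes it was 20.5, and 4 of the 7 were above 20, beside 63.7% of all promoters. For the housekeeping genes it was 126. Chromatin marks of a mixed culture cannot separate a change in each cell from a change in the share of cells, and this applies to every ratio given here.

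Among the core factors, *SOX2* had an H3K4me3 value of 157 (133 to 183) in −Dox and 152 (127 to 183) in +Dox. It ranked 181 of 20242 promoters in −Dox and 191 in +Dox, and its ratio of 0.973 (0.766 to 1.25) was near that of the median promoter. *NANOG* had 51.6 (38.2 to 67.0) and 62.3 (46.2 to 82.6), a ratio of 1.21 (0.810 to 1.84), in a window in which the canonical start was off centre. *POU5F1*, at its distant start, had 5.41 in −Dox and 3.73 in +Dox, about 6 and 3 reads, and its ratio of 0.689 had an interval from 0.105 to 3.04. These values describe background at a site away from the *POU5F1* promoter, and the nearest deposited promoters, *HCG27* at 17.0 kb and *TCF19* at 22.4 kb, had H3K4me3 values of 39.6 and 39.3 in −Dox. *PRDM14*, the PR-domain factor that sustains the core network, had the highest H3K4me3 value of the group, 201 (174 to 230) in −Dox and 156 (129 to 186) in +Dox. It ranked 31 of 20242 in −Dox and 166 in +Dox, and its ratio was 0.776 (0.615 to 0.975).

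Of the RNA-binding LIN28 proteins, *LIN28A* had 139 (118 to 165) in −Dox and 105 (83.2 to 130) in +Dox, a ratio of 0.752 (0.564 to 0.990). *LIN28B*, measured at its CpG-poor start, had 52.7 (39.9 to 69.3) and 72.0 (53.9 to 92.7), a ratio of 1.36 (0.909 to 1.99). The paralogues thus differed in the side of 1 on which their ratios lay, and the 2 intervals met only between 0.909 and 0.990. Among the chromatin-associated factors, *UTF1* had 108 (88.9 to 130) in −Dox and 63.8 (47.3 to 84.1) in +Dox. Its levels did not overlap within counting error, and its ratio of 0.590 (0.413 to 0.831) was the lowest of the 10 genes. *DPPA4* had 180 (155 to 208) and 150 (125 to 180), a ratio of 0.833 (0.658 to 1.06), and ranked 66 of 20242 in −Dox. *DPPA2*, whose start lies 21029 bp from that of *DPPA4*, had only 9.40 (4.71 to 18.1) and 9.69 (4.40 to 20.1), although it was measured at its canonical start. *TDGF1*, the NODAL co-receptor, had 73.0 (57.1 to 91.3) and 54.4 (39.7 to 73.9), a ratio of 0.746 (0.505 to 1.11). *LRRC2*, whose window contains the canonical *TDGF1* start, had 93.2 and 75.7, a ratio of 0.812 (0.572 to 1.13). The 2 deposited starts are 1051 bp apart, so these windows share most of their bases and are not separate measurements.

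**Figure D2:**
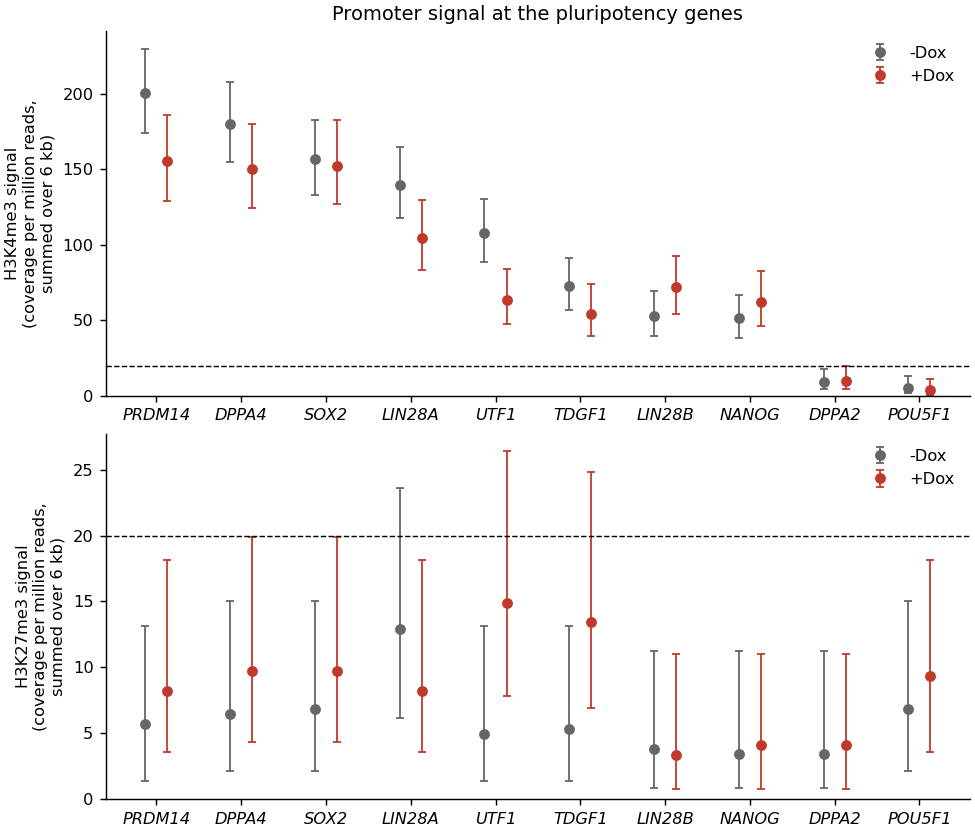
H3K4me3 (top) and H3K27me3 (bottom) signal at each pluripotency gene, in order of H3K4me3 in −Dox. Points are the value of the 1 library of −Dox (grey) and +Dox (red), bars are 95% Poisson intervals of counting error only, and the dashed line marks a signal of 20. H3K4me3 runs from 201 at *PRDM14* to 5.41 at *POU5F1* in −Dox, and H3K27me3 stays at or below 14.9.

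Ordered by H3K4me3 in −Dox, the genes ran from *PRDM14* through *DPPA4*, *SOX2*, *LIN28A*, *UTF1*, *TDGF1*, *LIN28B*, *NANOG* and *DPPA2* to *POU5F1*. Neighbours in this order differed beyond counting error at 2 places, between *UTF1* and *TDGF1* and between *NANOG* and *DPPA2*. In +Dox the order was *PRDM14*, *SOX2*, *DPPA4*, *LIN28A*, *LIN28B*, *UTF1*, *NANOG*, *TDGF1*, *DPPA2* and *POU5F1*. Here *DPPA4* and *LIN28A*, *LIN28A* and *LIN28B*, and *TDGF1* and *DPPA2* differed beyond counting error. *UTF1* went from the fifth place, above *LIN28B* and *NANOG*, to the sixth, where it could not be told from either.

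How H3K4me3 differed between the conditions was considered for the group as a whole. It was higher in +Dox at 3 of the 10 genes, or at 2 when scaled on low promoters, a factor applied to all genes alike that brought *DPPA2* below 1. It was lower at the other 7 and at 6 of the 8 that were marked, with a median log2 ratio of −0.31, beside −0.03 over all promoters. A ratio above 1 was found at 47.4% of all promoters, or at 33.0% when scaled on low promoters. The summed H3K4me3 signal of the 10 genes was 977 in −Dox and 829 in +Dox, a ratio of 0.848 with a counting interval from 0.768 to 0.939. That interval holds the error of the pooled reads only and not the spread of the genes, whose ratios ran from 0.590 to 1.36. The summed ratio was 0.870 with the promoter totals made equal and 0.766 when scaled on low promoters. The totals over all promoters were 919251 and 896546. A ratio below 0.66 was found only at *UTF1*, 1 of 10 genes beside 11.7% of all promoters, and none was above 1.5, beside 11.6%. The counting interval lay below 1 for *UTF1*, *LIN28A* and *PRDM14*, 3 of 10 genes beside 2.91% of all promoters, and above 1 for none, beside 1.64%.

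Because low promoters have wide intervals and scattered ratios, the 8 marked genes were also set beside the 8543 promoters with a mean H3K4me3 value of 50 to 200, a range chosen after the values had been seen and in which all 8 fall. In that range the median log2 ratio was −0.03, a ratio above 1 was found at 46%, a ratio below 0.66 at 2.03%, an interval below 1 at 3.66% and an interval above 1 at 2.07%. The calls for 2 of the genes rested on the scaling. When both H3K4me3 libraries were scaled to the same total over promoters, which multiplies +Dox values by 1.03, only the *UTF1* interval stayed below 1 (0.424 to 0.852). When they were scaled so that the median ratio of 6087 low promoters became 1, a factor of 0.903 that shifts each log2 ratio by −0.15, *DPPA4* joined *UTF1*, *LIN28A* and *PRDM14*, with a ratio of 0.752 (0.594 to 0.957), while the interval lay below 1 at 7.38% of all promoters. The 8 housekeeping genes, for comparison, had a median log2 H3K4me3 ratio of −0.13, with no interval below or above 1.

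**Figure D3:**
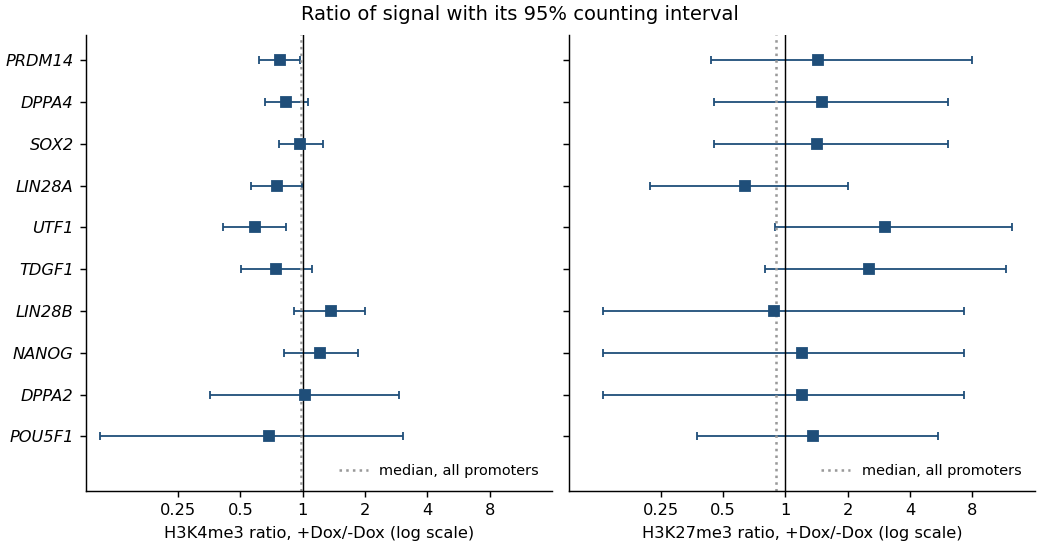
Ratio of +Dox to −Dox signal for H3K4me3 (left) and H3K27me3 (right) at each pluripotency gene, on a log axis with 95% counting intervals, the solid line at 1 and the dotted line at the median of all promoters. The H3K4me3 intervals of *UTF1*, *LIN28A* and *PRDM14* lie below 1, and every H3K27me3 interval includes 1.

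The neighbours of *UTF1* were considered as well. *VENTX*, a homeobox gene whose start lies 7638 bp from that of *UTF1*, had an H3K4me3 value of 116 in −Dox and 84.6 in +Dox, a ratio of 0.730 (0.528 to 0.989), and the 2 windows do not overlap. With scaling to the same total the *VENTX* interval, 0.542 to 1.01, included 1. *KNDC1*, on the other side at 70.0 kb, had a ratio of 1.09 (0.669 to 1.79). Over both marks and conditions, the promoters most like *UTF1* by Euclidean distance in log2(value + 5) over the 4 libraries were those of *TMEM102* (0.272), *ICOSLG* (0.327) and *UBE2R2* (0.332). Those most like *LIN28B*, which had the highest H3K4me3 ratio of the 10 genes, were *MYO1D* (0.0973), *AGO2* (0.113) and *FBXO48* (0.141).

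Whether H3K27me3, the substrate of JMJD3, differed at these genes was examined next. All values were low, from 3.42 to 12.9 in −Dox (about 3 to 10 reads) and from 3.36 to 14.9 in +Dox (about 3 to 12 reads), so that a difference at a given gene was not detectable at this depth unless it was large. *SOX2* had 6.85 in −Dox and 9.69 in +Dox, *NANOG* 3.42 and 4.10, *POU5F1* 6.85 and 9.32 at its distant start, and *PRDM14* 5.70 and 8.20. *LIN28A* had 12.9 and 8.20, and *LIN28B* 3.80 and 3.36. *DPPA2* had 3.42 and 4.10, and *DPPA4* had 6.47 and 9.69. The values of *UTF1* and *TDGF1* differed most, with 4.94 and 14.9 (about 4 and 12 reads) at *UTF1* and 5.32 and 13.4 (about 4 and 11 reads) at *TDGF1*.

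The H3K27me3 value was thus higher in +Dox at 8 of the 10 genes, where 43.4% of all promoters had a ratio above 1. At *NANOG* and *DPPA2*, which are among the 8, the approximate number of reads was 3 in both conditions. The median log2 ratio was 0.47, beside −0.15 over all promoters. The summed signal was 59.7 in −Dox and 85.0 in +Dox, about 46 and 69 reads. Its ratio was 1.42, with a counting interval from 0.998 to 2.18 that includes 1 only narrowly. With scaling to the same total the ratio was 1.68, and with scaling on low promoters 1.45. Both factors raise the interval in the same proportion, so that its lower limit passes 1. The interval holds the error of the pooled reads and not the spread between genes. A ratio above 1.5 was found at *UTF1*, 3.02 (0.891 to 12.5), and *TDGF1*, 2.52 (0.799 to 11.6), 2 of 10 genes beside 24.4% of all promoters. A ratio below 0.66 was found at *LIN28A*, 0.634 (0.222 to 2.0), 1 of 10 beside 33.6%. The counting interval lay below 1 for 0 of 10 genes, beside 6.81%, and above 1 for 0 of 10, beside 1.46%. Both H3K27me3 libraries were also scaled to the same total, a factor of 1.18 on +Dox that shifts each log2 ratio by 0.23. Then 9 genes were higher beside 53.1% of all promoters, and the median was 0.71 beside 0.08. The *UTF1* interval, from 1.05, lay above 1, as did those of 612 of 19462 promoters, against 285 as deposited. This scaling sets the promoter totals, 251063 in −Dox and 213388 in +Dox, equal, and so would hide a net loss of the mark. No interval here shows that H3K27me3 was unaltered at any of the genes.

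The H3K27me3 difference moved with the H3K4me3 level at promoters in general. At promoters with at most 20 for H3K27me3 in both conditions, H3K27me3 was higher in +Dox at 46.5% of the 6562 promoters with a mean H3K4me3 value up to 20, at 42.9% of 4571 from 20 to 60, at 50.4% of 4658 from 60 to 100, at 57.3% of 1495 from 100 to 150, and at 66.5% of 206 from 150 to 300. The ratio of the mean H3K27me3 values in these ranges was 0.964, 0.886, 1.01, 1.12 and 1.20. With scaling to the same total it was 1.13, 1.04, 1.19, 1.32 and 1.42. *SOX2*, *PRDM14* and *DPPA4* fell in the highest range, *LIN28A* in that below it, and *UTF1*, *TDGF1* and *LIN28B* in the middle one. *NANOG* fell in the range from 20 to 60 and *DPPA2* and *POU5F1* in the lowest. All 3 had slightly higher H3K27me3 values in +Dox, whereas most promoters of these ranges did not in the values as deposited. These differences are within counting error, with about 3 reads in each condition at *NANOG* and *DPPA2* and about 5 and 7 at *POU5F1*. *LIN28A* and *LIN28B* had less. The part of this relation in the values of the pluripotency genes was not tested.

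**Figure D4:**
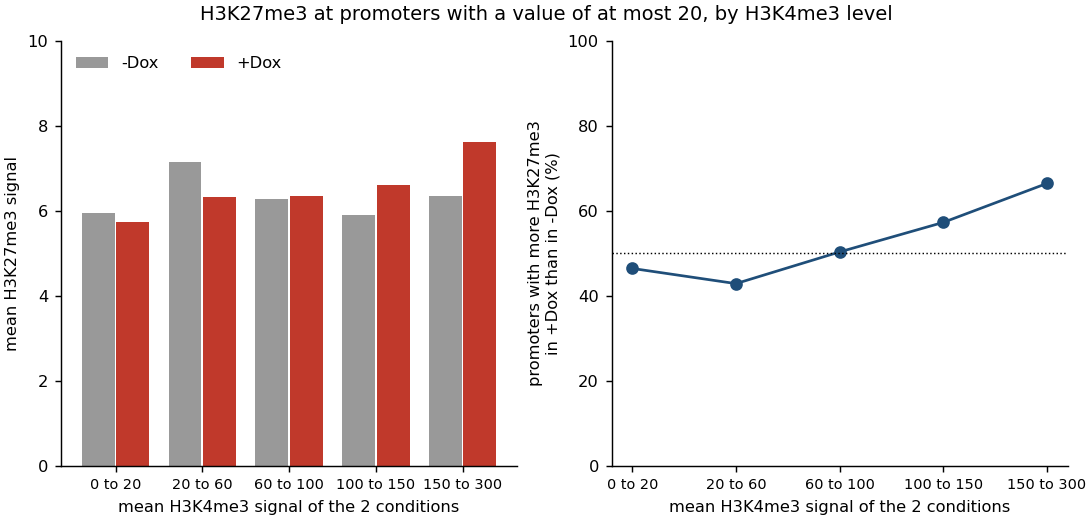
H3K27me3 at promoters with at most 20 for this mark in both conditions, grouped by mean H3K4me3 signal (x axis), as the mean signal in −Dox (grey) and +Dox (red, left) and as the percentage of promoters with more signal in +Dox (right, dotted line at 50). The percentage is 46.5 in the lowest range, 42.9 in the next and 66.5 in the highest.

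CpG content at the measured starts was set beside H3K4me3. The ratio of observed to expected CpG in the 500 bp on each side of the start was 0.940 at *UTF1*, 0.789 at *PRDM14* and 0.739 at *SOX2*, and below 0.6 at the other 7 genes. The median was 0.785 over promoters above 20 for H3K4me3 in −Dox and 0.268 over those at or below 20. Of the 6868 promoters with a CpG ratio below 0.6, 21.4% were above 20 for H3K4me3 and 16 (0.233%) were above 150. *DPPA4*, with a CpG ratio of 0.476 and an H3K4me3 value of 180, is one of these 16, and *LIN28A*, at 0.503, had 139. Of the 11372 promoters with a CpG ratio of at least 0.6, 91.7% were above 20 and 211 (1.86%) above 150. *DPPA2* and *DPPA4*, which lie side by side, thus had CpG ratios of 0.558 and 0.476, and 9.40 against 180 for H3K4me3. At *TDGF1* the ratio was 0.216 at the deposited and 0.479 at the canonical start, and at *POU5F1* it was 0.561 and 0.361.

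**Figure D5:**
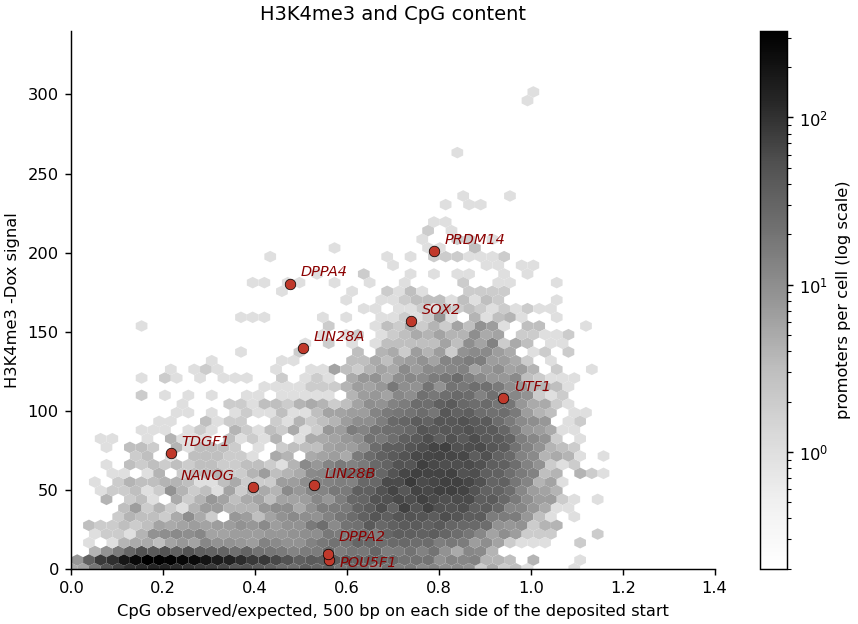
H3K4me3 signal in −Dox (y axis) against the observed to expected CpG ratio in the 500 bp on each side of the deposited start (x axis) for 18240 promoters (grey cells, darker with more promoters) and the 10 pluripotency genes (red). *DPPA4* (0.476, 180) and *LIN28A* (0.503, 139) lie above most promoters of similar CpG ratio, and *DPPA2* (0.558, 9.40) lies near 0.

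Other genes of the pluripotency program were described by 2 lists. Of 24 genes that act in or mark human pluripotent cells, 19 were H3K4me3-only, 4 were unmarked and 1, *SOX3*, was bivalent in −Dox. Among the unmarked genes, the windows of *LEFTY1* and *NODAL*, named for this reason, were centred 22236 and 6270 bp from the canonical start. Neither window contained that start, so these classes do not describe the canonical promoters. The same holds for *EPCAM*, H3K4me3-only at 24148 bp, and no position was matched for *PODXL*. H3K4me3 was higher in +Dox at 11 of the 24, or at 8 when scaled on low promoters, with a median log2 ratio of −0.09, and the interval lay below 1 for 2 of them, *MYC* (211 and 161) and *PODXL* (195 and 144), which are named because of their values. That count, recomputed after seeing the data, was 2 when scaled to the same total and 6 when scaled on low promoters. Over all promoters an interval below 1 was found at 2.91% as deposited, and at 2.36% and 7.38% with these scalings. The share with a higher value, 45.8% of the list or 33.3% when scaled on low promoters, was near the 47.4% and 33.0% of all promoters. The median log2 H3K27me3 ratio was 0.21, with 9 genes below 0.66 and 8 above 1.5, beside 33.6% and 24.4% of all promoters. *SOX3*, the X-linked relative of *SOX2*, had an H3K27me3 value of 55.9 in −Dox and 13.4 in +Dox, a ratio of 0.240 (0.117 to 0.495), while its H3K4me3 value was 69.5 and 88.0. It was H3K4me3-only in +Dox. *SOX2* itself was below 20 for H3K27me3 in both conditions.

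Of 11 genes associated with naive-state pluripotency, 3 were bivalent in −Dox, *KLF2*, *KLF4* and *TBX3*, and the same 3 were bivalent in +Dox. The other 8 comprised 5 unmarked and 3 H3K4me3-only genes. Among the unmarked genes, the windows of *ESRRB* and *KLF5*, named for this reason, were centred 65425 and 4029 bp from the canonical start. Neither window contained that start, so these classes do not describe the canonical promoters. *KLF4*, a reprogramming factor, had an H3K27me3 value of 51.0 in −Dox and 24.2 in +Dox, a ratio of 0.476 (0.255 to 0.823), and *TBX3*, a T-box factor, had 104 and 58.5, a ratio of 0.562 (0.379 to 0.809). *KLF2*, a Krüppel-like factor as is *KLF4*, had 74.5 and 87.2, a ratio of 1.17 (0.811 to 1.68). H3K4me3 was lower in +Dox at *KLF4*, with a ratio of 0.594 (0.411 to 0.854), and at *KLF2*, with 0.537 (0.336 to 0.826). It was 56.1 and 75.7 at *TBX3*. The list also holds the Krüppel-like genes *KLF17*, with an H3K4me3 ratio of 0.453 (0.0831 to 2.03), and *KLF5*, with 0.491 (0.0494 to 3.17). These ratios were the lowest of the list, but the genes were unmarked and had about 3 and 2 reads in +Dox. The list had median log2 ratios of 0.11 for H3K4me3, which became −0.04 when scaled on low promoters, and −0.66 for H3K27me3, beside −0.31 and 0.47 at the 10 pluripotency genes.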

How the data were processed

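The authors sequenced single ends (MiSeq), aligned the reads to hg19 using Bowtie2 and removed mitochondrial reads. The deposited values are signal, that is ngs.plot coverage scaled to the reads of the library. Versions of the mapper and of ngs.plot are not given in the sources used here, and neither is whether a scaling of profiles to the density beyond transcription ends was applied to these values. A scaling to library reads would hide a change shared by the whole genome.

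In each of the 4 files 100% of values were whole multiples of a step (0.380, 0.373, 0.285 and 0.373 for H3K27me3 −Dox and +Dox and H3K4me3 −Dox and +Dox), taken as 1 read at 1 data point, which gives libraries of 2629351, 2682085, 3509244 and 2682085 reads. The spacing of low values gave 3.38 to 3.45 data points per read, from which the approximate read numbers behind the intervals were derived. Ratios were plain +Dox/−Dox values, and promoters at 0 in −Dox were left out. Of the deposited transcripts, 18244 (90.1%) were matched to GENCODE 44. Limits of 0.66 and 1.5 were used for ratios. The members, gene lists and limits of the ranges were chosen with earlier results of these data known. The genes named are the 10 members, their nearest deposited promoters, the promoters most alike and, from the 2 further pluripotency lists, the genes above 20 for H3K27me3 or with the lowest or highest ratios, with exceptions stated. The values of some of these genes are not reported here. The interval script was tested on simulated data. Alternatives were 2 further scalings, a pseudocount of 5, 2.5 data points per read, class thresholds of 10 and 30, a fold limit of 0.5, and the members within 1000 bp of the canonical start. Python 3.11.15, pandas 2.3.3, scipy 1.17.1 and matplotlib 3.10.9 were used.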

Additional observations from a re-analysis of the deposited data

How the results depend on the processing

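For the 10 pluripotency genes and the 2 further pluripotency lists, 12 summary results were recomputed 46 times. Of these, 38 stayed within the limits set for an unaltered result and 8 moved. The limits were wide. With scaling to low promoters, the number of members with an H3K4me3 interval below 1 went from 3 to 4 within them. The members' median log2 H3K4me3 ratio went from −0.31 to −0.46, also within them. That of the naive-state genes even changed sign within them, from 0.11 to −0.04. The 38 are therefore not evidence that the results do not depend on the processing. The number of members with an H3K4me3 ratio below 0.66 was 1 as reported, 2 with scaling to low promoters and 0 at a limit of 0.5. The number with an H3K4me3 interval below 1 was 3 as reported and 1 with scaling to the same total. The number with an H3K27me3 ratio below 0.66 was 1 as reported, and 0 with scaling to the same total, with a pseudocount of 5 and at a limit of 0.5. The number above 20 for H3K27me3 in −Dox was 0 as reported and 1 at a threshold of 10. The median log2 H3K4me3 ratio of the other pluripotency genes was −0.09 as reported and −0.24 with scaling to low promoters, a scaling that lowers every H3K4me3 log2 ratio by the same amount. Intervals of the members' ratios were recomputed under both scalings but not with the pseudocount. Those that changed were the H3K4me3 ratios of *PRDM14* and *LIN28A*, which came to include 1 with scaling to the same total, and the H3K4me3 ratio of *DPPA4* and the H3K27me3 ratio of *UTF1*, which came to exclude it with scaling to low promoters and to the same total, respectively. With intervals across 1 throughout, *DPPA2* for H3K4me3 and *LIN28B* for H3K27me3 changed side of 1 under these scalings. No paired analysis was possible because only 1 library stands in a group, and leaving out a library was likewise impossible. Depth limits H3K27me3 most, since the members had about 3 to 12 reads each.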

Other observations

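In both +Dox files the step between values was the same, 0.373, which corresponds to 2682085 reads for the H3K27me3 and for the H3K4me3 library, whereas the −Dox libraries had different steps (0.380 and 0.285). The values themselves differed, with totals over promoters of 213388 and 896546. Whether both +Dox libraries had this depth, or were scaled with the same number, was not tested. If the latter, every +Dox/−Dox ratio of a mark would be multiplied by a common factor, while the order of the genes within a library would stay as given.

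Of the wider pluripotency list, the genes with the highest and the lowest H3K4me3 ratio were both unmarked in −Dox. *GDF3*, a TGF-beta family ligand, had 5.13 in −Dox and 11.2 in +Dox, a ratio of 2.18 (0.703 to 8.87), the highest of the list. *LEFTY2*, an inhibitor of NODAL signalling, had 17.1 and 8.58, a ratio of 0.502 (0.187 to 1.36), the lowest of the list. Both were measured at the canonical start and both intervals include 1.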
